A study of Mus musculus with 24 samples.

Results

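The comparison set colon against small intestine (SI) in Atoh1-lineage cells that carried the 9S/T-A form of ATOH1. The members were the 12 libraries labelled with that genotype, 6 from colon and 6 from SI, out of 24 libraries in the series, and the 12 libraries with the unchanged protein (WT, 6 per tissue) were used to test whether a tissue difference depended on genotype. Both groups came from C57BL/6 mice homozygous for a knock-in in which Atoh1 was followed by CreERT2, a Cre recombinase that tamoxifen switches on, together with a single copy of a Cre-dependent tdTomato reporter at Rosa26. In the 9S/T-A allele the 9 serine or threonine residues of ATOH1 that precede a proline were replaced by alanine, and in the WT allele they were intact. Each group held 3 female and 3 male mice aged 8 to 16 weeks, and cells were taken 24 h after 1 intraperitoneal dose of 3 mg tamoxifen. Live cells positive for EpCAM, an epithelial adhesion protein, and for tdTomato were sorted from the proximal SI, with the villus fraction discarded, and from the colon. The model has 2 limits: Cre is driven from the Atoh1 locus itself, so the reporter marks every cell with recent Atoh1 activity and not a single cell type, and the colon was not divided by region.

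ATOH1 is a basic helix-loop-helix transcription factor that commits crypt progenitors to the secretory fate, which gives goblet, Paneth and enteroendocrine cells. Cyclin-dependent kinases phosphorylate serine and threonine before proline, and the comparison addressed which regional programmes of the mutant cells differ between the tissues when those sites cannot be used. Position along the gut is encoded by transcription factors. Posterior Hox genes mark the hindgut, GATA4 and PDX1 mark the proximal SI, and CDX factors are shared by the whole intestine. The regions also differ in their secretory cells, since Paneth cells with their antimicrobial alpha-defensins belong to the SI, whereas the colon holds deep crypt secretory cells and a different set of goblet cell products.

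Of 16938 genes tested, 10319 differed at an adjusted p under 0.05 (edgeR quasi-likelihood test, two-sided, Benjamini-Hochberg over all genes tested) and are termed called. They made up 60.9% of the genes tested, with 5576 higher in colon (32.9%) and 4743 higher in SI (28.0%). Differences were given as log2 of colon over SI, so that a positive value is a higher level in colon, and levels as CPM, a gene's counts scaled to a common library size after TMM adjustment. 1975 genes were called and at least 2-fold higher in colon (11.7%) and 2056 at least 2-fold higher in SI (12.1%), and 282 and 304 were at least 32-fold apart. The 6 colon libraries lay wholly above or wholly below the 6 SI libraries for 6939 genes (41.0%). The balance of directions depended on scaling. With plain library totals the median difference of all genes moved from 0.04 to 0.85 and 88.4% of calls were higher in colon, in place of 54.0% with TMM. Differences under about 0.8 in size that favour SI can therefore turn to colon on that scale.

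The libraries held 49.0 to 65.2 M counts in colon and 47.2 to 65.8 M in SI, and the 20 most abundant genes took 13.7 to 19.4% of the counts in colon and 37.4 to 44.8% in SI. Epithelial markers were present in both tissues. Of 8 listed, 0 were higher in colon and 7 higher in SI, which became 4 and 4 with plain library totals. Epcam, which encodes the sorted surface protein, had 749 to 1034 CPM in colon (median 980) and 874 to 1091 CPM in SI (median 971), with a difference of -0.05 (adjusted p = 0.714, edgeR), which turned to 0.75 with plain library totals. Leukocyte transcripts were scarce but higher in SI. Of 18 leukocyte markers 14 were tested, with 1 higher in colon and 12 higher in SI, and the summed level without Lyz2, which Paneth cells may also yield, was 6.21 to 12.3 CPM on plain totals in colon and 30.4 to 92.2 in SI. Among these, Gzma, a protease of cytotoxic lymphocytes, had 16.9 to 59.8 CPM in SI and at most 0.158 CPM in colon, and Cd79a, Jchain and Csf1r did not pass the count filter. Stromal markers (15 listed, 6 tested, 1 higher in colon and 3 in SI) summed to 13.3 to 20.2 CPM on plain totals in colon and 7.36 to 10.3 in SI, and Col1a1, Col3a1 and Dcn did not pass the filter. Of 15 pancreatic acinar markers 4 were tested, 1 higher in colon and 3 in SI. Without Zg16, which goblet cells also make, that list summed to 122 to 188 CPM on plain totals in colon and 77.2 to 149 in SI. Most of this sum was a single gene per tissue, Cela1 in colon (6818 to 9445 counts per library) and Rnase1 in SI (4580 to 5807 counts). Cpa1, Pnlip and Amy2a5 did not pass the filter. The part of these other cells in the results was not tested. In sorted bulk samples fewer cells of a type and less RNA per cell cannot be told apart. Colon replicate 6 stood apart for MHC class II genes, colon replicate 3 for hormone genes and SI replicate 2 for brush border genes, as given beside those results.

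Hox genes, which encode position along the body axis, separated the mutant colon cells from the mutant SI cells. Of 39 Hox genes listed 26 passed the count filter, all 26 were higher in colon (against 32.9% of all genes tested) and 0 were higher in SI (edgeR, and also 0 by DESeq2, with the block and with each of the 3 other scalings). The median difference was 6.51, against 0.04 over all genes. The count is a description, since genes such as Hoxd10, with 0 counts in each SI library, could pass the filter through the colon alone. The 13 genes that did not pass it included all 9 listed Hoxc genes. Hoxb13 (ENSMUSG00000049604, GRCm38 chromosome 11, 96194316 to 96197447), the most abundant Hox transcript and a marker of the hindgut, had 147 to 280 CPM in colon (median 217) and 0.222 to 0.605 CPM in SI (median 0.42). The difference was 9.00 (SE 0.244, adjusted p = 2.25e-13), and the lowest colon library exceeded the highest SI library by a wide margin. Hoxa13 had 10.2 to 16 CPM in colon and 0 to 0.0773 CPM in SI, a difference of 9.02, and Hoxd13 had 15.3 to 19.2 CPM in colon and 0 to 0.0691 CPM in SI, a difference of 9.41.

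The differences did not follow paralogue order in regular steps. The median was 3.83 in group 2, 8.78 in group 8, 6.98 in group 9 and 9.02 in group 13, and Hoxd4, of group 4, with 0 counts in each SI library, was at least 17.4-fold higher in colon. Hoxb2, an anterior gene, had 0.718 to 2.0 CPM in colon and 0.276 to 1.10 CPM in SI, so its libraries overlapped, and its difference of 1.04 (adjusted p = 0.0149) was the smallest of the 26. Paralogue group 13, the most posterior, summed to a mean of 249 CPM in colon against 0.466 CPM in SI. In paralogue group 9, Hoxb9 had 57.5 to 81.1 CPM in colon and at most 0.224 CPM in SI (8.63), and Hoxa9 had 11 to 18.6 CPM against at most 0.502 CPM (5.32), so genes of the same paralogue group differed by cluster. By cluster, the median difference was 6.11 over 11 Hoxa genes, 6.33 over 9 Hoxb genes and 9.04 over 6 Hoxd genes. Several SI values were at or under a few counts, so fitted differences such as those of the Hoxd genes are not bounds. Against a floor of 3 counts per SI library, Hoxd8 was at least 67.4-fold higher in colon, Hoxa11 at least 44.0-fold, Hoxd11 at least 21.1-fold and Hoxd10 at least 18.3-fold. In WT mice all 26 Hox genes tested were higher in colon, with a median of 6.53, and the genotype by tissue product was called for 0 of 27 (edgeR, 0 at an unadjusted p under 0.05, and 0 by DESeq2).

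**Figure D1:**
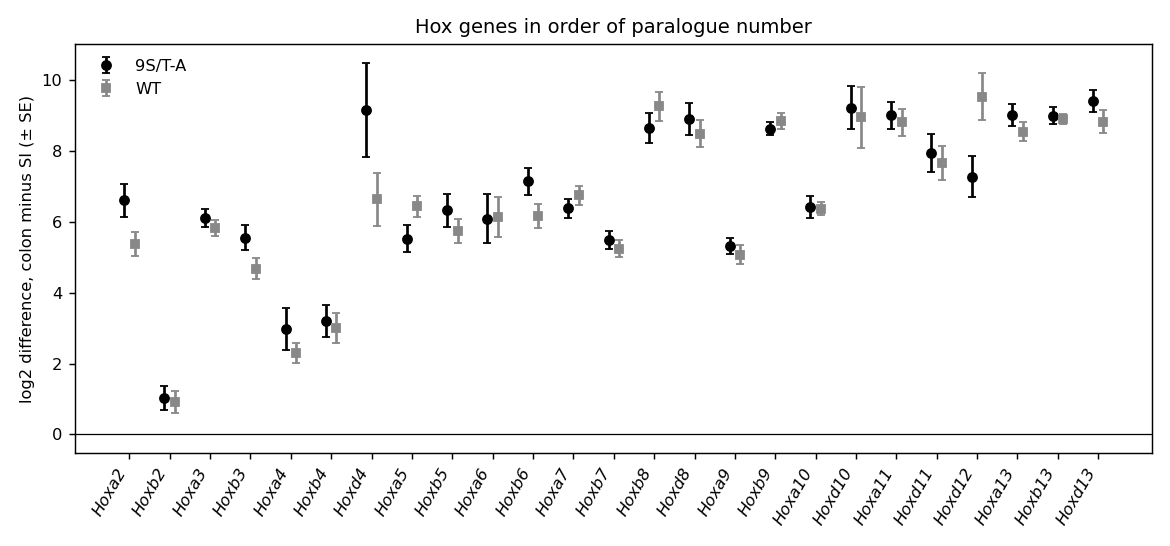
Log2 difference of colon over SI (y axis, with standard error) for 25 of the 26 tested Hox genes, ordered by paralogue number on the x axis, in 9S/T-A and in WT. The 9S/T-A points run from 1.04 for Hoxb2 to 9.41 for Hoxd13, and each WT point drawn also lies above 0.

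The promoter of Hoxd13, the Hox gene with the largest difference, is shown because its base composition differs from that of the SI promoters printed later. The 250 bases upstream of its RefSeq start (GRCm38.p6, chr2:74667975-74668224, plus strand, printed 5′ to 3′) were 74.4% G or C and held 31 CpG pairs, against medians of 60.3% and 20 over the 10941 promoter windows of 300 bases that matched tested genes by symbol. Capitals mark TATAAA, found here on both strands.
Hoxd13: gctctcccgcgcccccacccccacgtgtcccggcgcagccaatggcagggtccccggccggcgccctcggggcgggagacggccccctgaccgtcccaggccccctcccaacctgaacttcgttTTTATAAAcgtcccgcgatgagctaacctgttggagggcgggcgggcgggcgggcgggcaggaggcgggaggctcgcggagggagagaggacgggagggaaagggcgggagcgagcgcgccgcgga

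Among 26 other regional and intestinal transcription factors, 24 were tested, 7 of them lay above SI in colon and 15 below it, beside 32.9% and 28.0% of all genes. The median of -0.98 stayed under 0 with plain totals (-0.18), where the counts were 10 and 11. The strongest were SI factors. Onecut2, a cut-homeodomain factor, had 74.0 to 107 CPM in SI and 0.0318 to 0.0796 CPM in colon, a difference of -10.56. Gata4 (ENSMUSG00000021944, chromosome 14, 63198922 to 63271692), which specifies proximal SI, had 95.2 to 118 CPM in SI (median 102) and 0.237 to 0.699 CPM in colon (median 0.453). The difference was -7.86 (SE 0.205, adjusted p = 1.51e-13), and its relative Gata5 followed it at -6.62. Pdx1, the duodenal and pancreatic factor, had 12.4 to 24.1 CPM in SI and at most 0.461 CPM in colon (-6.25), and Tbx3 had 126 to 186 against 4.88 to 7.82 CPM (-4.59). All of these groups were separated without overlap, as were those of 41.0% of all genes tested.

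On the colon side, Klf5, a crypt factor, differed by 1.21. The factors shared by the whole gut moved little. Cdx1 had 239 to 347 CPM in colon and 251 to 326 CPM in SI (0.11, adjusted p = 0.365), and Cdx2 had 106 to 141 against 97.3 to 122 CPM (0.14, adjusted p = 0.162). Their libraries overlapped, and Cdx2 passed the threshold with upper quartile scaling (0.22). Both were called higher in colon with plain library totals, at 0.91 and 0.95. Hnf4a, a shared enterocyte and secretory regulator, was lower in colon by a smaller amount than the SI factors (-1.08). Barx2, a homeobox gene, was the single listed factor with a called product: 2.05 in 9S/T-A and 0.54 in WT (product 1.5, adjusted p = 0.0154).

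Atoh1 itself did not separate the tissues. The gene (ENSMUSG00000073043, chromosome 6, 64729146 to 64731233) had 65.1 to 103 CPM in colon (median 81.8) and 56.7 to 89.4 CPM in SI (median 72.8). The groups overlapped, and the difference was 0.17 (SE 0.119, adjusted p = 0.245), or 0.97 and called with plain totals. Spdef, which directs goblet and Paneth maturation, had 300 to 397 CPM in colon and 295 to 481 CPM in SI (-0.23, adjusted p = 0.109), and was called with the replicate number as a block (-0.22, adjusted p = 0.0288) but turned to 0.58 with plain totals. Gfi1, a repressor that holds the non-endocrine secretory fate, was slightly lower in colon (-0.31, adjusted p = 0.0242), a call that was lost without colon replicate 2, SI replicate 6 or SI replicate 7 and with upper quartile scaling, and that turned to 0.49 with plain totals.

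Regulators of the secretory lineage were more often higher in SI. Of 31 listed, 4 were higher in colon and 23 higher in SI (12 and 17 with plain totals), where 28.0% of all genes were higher in SI, and the median was -1.44 against 0.04 over all genes. Neurog3, which commits cells to the endocrine branch, had 6.85 to 23.6 CPM in SI and 1.17 to 3.57 CPM in colon (-2.82), and Neurod1, which acts after it, differed by -2.30. The Notch ligands Dll1 and Dll4 were lower in colon as well (-1.64 and -1.79), as were the inhibitors of basic helix-loop-helix factors Id1 and Id3 (-1.85 and -2.60). The 4 genes higher in colon were Foxa1 (1.14), a pioneer factor, Creb3l1 (1.09), a regulator of secretory capacity, Sox9 (0.65), a crypt factor, and Hes6 (0.38). In WT 5 were higher in colon and 22 in SI, and the product was called for 0 of 31 (edgeR, 5 at an unadjusted p under 0.05, 0 by DESeq2).

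**Figure D2:**
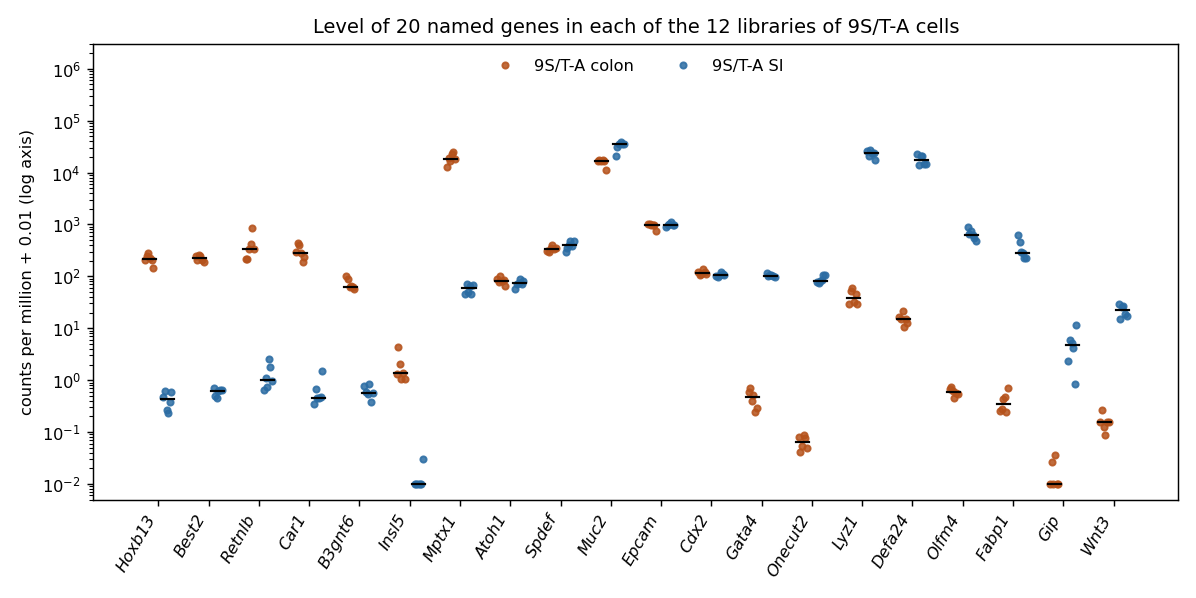
Level of 20 genes in each of the 12 9S/T-A libraries (CPM after TMM scaling plus 0.01, log axis), colon and SI side by side, with the median of each group as a bar. Posterior factors such as Hoxb13 stand at 147 to 280 CPM in colon against at most 0.605 CPM in SI, Gata4 and Lyz1 show the reverse, and Atoh1 overlaps between the tissues.

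Goblet cell products were present in both tissues but at different strengths. Together 30 listed genes took 7.27 to 12.0% of all counts in colon and 26.9 to 36.4% in SI. Of the 30, 8 were higher in colon and 19 higher in SI (13 and 12 with plain totals), beside 32.9% and 28.0% of all genes. Muc2, the gel-forming mucin, had 11045 to 17807 CPM in colon (median 16753) and 21247 to 38351 CPM in SI (median 35459). Its groups did not overlap and the difference was -1.04 (adjusted p = 0.00013), which shrank to -0.24 with plain totals and was then not called. Larger SI differences were found for secreted partners of the mucus layer. Zg16, a lectin-like mucus protein, had 3947 to 10855 CPM in colon and 91003 to 148379 CPM in SI (-4.24). Tff3, the trefoil peptide, differed by -4.51 and Fcgbp, which binds to the mucin network, by -3.80. Ido1, a tryptophan-degrading enzyme, had 569 to 1360 CPM in SI and 2.56 to 64.8 CPM in colon (-5.72), where the colon libraries spread widely.

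A smaller group of goblet products belonged to the colon. Best2, a chloride and bicarbonate channel of colonic goblet cells, had 189 to 257 CPM in colon (median 226) and 0.438 to 0.695 CPM in SI (median 0.619), a difference of 8.59 (SE 0.144, adjusted p = 2.24e-15). Retnlb, an antibacterial goblet product, had 212 to 864 CPM against 0.644 to 2.55 CPM (8.28), with the highest value in colon replicate 6. Sval1 had 706 to 1153 CPM against 12.1 to 25.1 CPM (5.84). None of these overlapped, which held for 41.0% of all genes tested. Agr2, a disulfide isomerase needed for mucin folding, stood at 3608 to 5484 CPM in colon and 3418 to 4504 CPM in SI (0.11, adjusted p = 0.47), and overlapped.

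Of 39 enzymes listed that build mucin sugars 36 were tested, 15 were higher in colon and 15 in SI (25 and 6 with plain totals), beside 32.9% and 28.0% of all genes, and the median was 0.05. Colon cells held the higher levels of St6galnac6, a sialyltransferase, at 729 to 1142 CPM against 1.57 to 3.40 CPM (8.70). The same held for Fut2, which adds the terminal fucose of secretor glycans, at 224 to 354 against 1.64 to 3.33 CPM (7.02), for B3gnt6, the core 3 synthase, at 55.8 to 99.7 against 0.377 to 0.833 CPM (6.90), and for Gcnt1, a core 2 branching enzyme (5.21). Chst5, a sulfotransferase, had 64 to 147 counts in colon libraries and 0 in SI, at least 21.1-fold higher. SI cells held more Gcnt4 (-2.99), St3gal1 (-1.74) and B4galnt1 (-1.65), and more Galnt1 (-1.52) and Galnt6 (-1.48), which both begin O-glycan chains. A4gnt, which adds an alpha-linked N-acetylglucosamine, was the listed member with a called product, at 4.01 in 9S/T-A and 2.46 in WT (product 1.56, adjusted p = 0.00116). Its levels in the fit of 24 libraries were 88.8 to 153 CPM in 9S/T-A colon and 61.6 to 89.6 CPM in WT colon, against 5.23 to 9.54 CPM in 9S/T-A SI and 10.2 to 18.1 CPM in WT SI.

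The Paneth programme was carried by the SI. Of 39 alpha-defensin genes listed 29 passed the filter, and all 29 were higher in SI (against 28.0% of all genes tested), with differences from -10.87 to -8.09, a median of -10.27 and no overlap. As for the Hox genes the count is a description, since members such as Defa-ps16 and Defa-ps17, with 0 counts in each colon library, could pass the filter through SI alone, and fitted differences of such members are not bounds. The 10 that did not pass carry pseudogene names (Defa-ps). The list took 3.91 to 6.67% of all counts in SI and 0.00514 to 0.00943% in colon. Reads of such close paralogs can be placed at the wrong copy, so values of single defensins are uncertain, and the source of the few colon reads was not tested. Lyz1 (ENSMUSG00000069515, chromosome 10, 117287796 to 117292868), the Paneth lysozyme, had 17816 to 26771 CPM in SI (median 23792) and 29.5 to 58.3 CPM in colon (median 38.9), a difference of -9.13 (SE 0.282, adjusted p = 8.14e-13). Lyz2, its close paralog, ran parallel at -9.15, so the pair may share reads. Of the 20 other Paneth products listed, 5 were higher in colon and 13 in SI, beside 32.9% and 28.0% of all genes. Itln1, a lectin, had 3732 to 6428 CPM in SI and 17 to 51.5 CPM in colon (-7.39). Habp2 differed by -9.25, Wnt3, the Paneth-derived Wnt ligand, by -7.23, and Mmp7, the protease that activates defensins, by -5.28.

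The pentraxin pair was among the 5 of these 20 other Paneth products that were higher in colon, against 13 higher in SI. Mptx1 (ENSMUSG00000026531, chromosome 1, 174330518 to 174332873), a mucosal pentraxin, had 12647 to 24339 CPM in colon (median 18643) and 45.1 to 71.6 CPM in SI (median 58.4). Its difference was 8.36 (SE 0.252, adjusted p = 5.95e-13), and per length it was the most abundant transcript of the colon libraries, at a mean of 31585 RPKM. Mptx2 (ENSMUSG00000079180, chromosome 1, 173274382 to 173277777) had 363 to 709 CPM in colon (median 621) and 20.9 to 91.7 CPM in SI (median 40.5). The difference was 3.75 (SE 0.315, adjusted p = 7.03e-08), without overlap. In WT the same gene was lower in colon (-1.31, adjusted p = 6.28e-05), and its product of 5.06 (SE 0.395, adjusted p = 3.38e-08) was the most significant of the 17953 genes tested for it. On the scale of the 24 libraries, Mptx2 stood at 373 to 740 CPM in 9S/T-A colon, 272 to 737 CPM in WT colon, 21.3 to 92.4 CPM in 9S/T-A SI and 770 to 1461 CPM in WT SI. The colon groups overlapped, and the SI groups did not. The product was called in 24 of 24 fits that left out 1 library, from 4.92 to 5.42. The Mptx genes are close paralogs, so single values are uncertain, and how reads were shared between them was not tested.

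The upstream 250 bases of both pentraxins (RefSeq, GRCm38.p6, printed 5′ to 3′) are shown because the genes are close paralogs of which Mptx2 alone turned direction between the genotypes. Mptx1 lies at chr1:174330268-174330517 on the plus strand and Mptx2 at chr1:173277757-173278006 on the minus strand. Both windows were rich in A and T (32.4% and 33.2% G or C) and both held the letters GTTAAT followed at once by ATTAAC, the same letters on the other strand. Capitals mark all motifs searched, which are spelled out with the SI promoters.
Mptx1: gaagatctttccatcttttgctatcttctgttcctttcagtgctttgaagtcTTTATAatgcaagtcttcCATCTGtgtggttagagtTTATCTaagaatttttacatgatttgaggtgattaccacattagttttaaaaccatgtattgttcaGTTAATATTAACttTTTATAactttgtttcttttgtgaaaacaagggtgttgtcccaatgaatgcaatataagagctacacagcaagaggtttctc
Mptx2: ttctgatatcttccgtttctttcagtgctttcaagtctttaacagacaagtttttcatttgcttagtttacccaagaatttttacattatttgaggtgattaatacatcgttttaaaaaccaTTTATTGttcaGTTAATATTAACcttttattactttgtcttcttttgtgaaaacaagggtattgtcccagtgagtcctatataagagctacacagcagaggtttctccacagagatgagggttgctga

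Other Paneth products also differed by genotype. Among the 20, the product was called for 5, Mptx2, Mptx1 (1.16), Mmp7 (2.1), Clps (0.88) and Pnliprp2 (1.88), where 0.412% of all genes were. Pnliprp2 lost its call with the replicate block (adjusted p = 0.055). The count of 5 ranged from 2 to 5 over fits without 1 library, and was 2 without 9S/T-A SI replicate 6, WT colon replicate 4 or 6, or WT SI replicate 3 or 5. Mmp7 had 212 to 653 CPM in 9S/T-A SI and 4.63 to 22.7 CPM in colon, and its tissue difference was -5.28 in 9S/T-A against -7.38 in WT (adjusted p = 0.0318 for the product). The call for Mmp7 was lost in 9 of the 24 fits that left out a library, where its adjusted p reached 0.0668 without WT colon replicate 4. Mptx1 was called in 18 of 24, with the highest adjusted p of 0.0605 without 9S/T-A colon replicate 6. Ang4, an antimicrobial ribonuclease, had 92.8 to 1306 CPM in colon and 528 to 753 CPM in SI. Its difference in 9S/T-A was -0.10 (adjusted p = 0.839), and it turned to 0.13 without colon replicate 2, to 0.01 without colon replicate 3 and to 0.70 with plain totals. In WT it was -2.20 and called, and the product of 2.09 was not called (adjusted p = 0.199).

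Genes of deep crypt secretory cells, the colonic neighbours of stem cells, were mixed. All 6 listed were called, 4 higher in colon and 2 in SI, beside 32.9% and 28.0% of all genes. Reg4, their best-known marker, had 1045 to 2416 CPM in colon and 474 to 782 CPM in SI (1.40), Kit, a receptor tyrosine kinase, 208 to 311 against 77.3 to 92.7 CPM (1.60), and Egf, a niche growth factor, 28.9 to 48.7 against 6.62 to 9.90 CPM (2.14). Dll1 and Dll4 were the members higher in SI. Among 15 crypt niche ligands, 13 were tested, 3 were higher in colon and 8 in SI, beside the same shares of all genes. The colon count fell to 1 without colon replicate 2 or 7 or SI replicate 5 or 7, which left Egf, while the SI side held Wnt3, Areg (-2.33) and Btc (-2.41), ligands of the EGF receptor, and Wnt9b, with 19 to 28 counts in SI libraries and 0 in colon, at least 12.4-fold higher in SI.

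Of 21 stem cell genes listed, 8 were higher in colon and 9 in SI (14 and 5 with plain totals), beside 32.9% and 28.0% of all genes, with a median of -0.23. Olfm4, the SI stem cell marker, had 471 to 891 CPM in SI (median 627) and 0.438 to 0.715 CPM in colon (median 0.585), a difference of -10.12. Lgr5, the receptor that marks cycling stem cells in both tissues, had 14.7 to 26.6 CPM in SI and 4.15 to 12.7 CPM in colon (-1.20, adjusted p = 0.00045), which shrank to -0.37 with plain totals and was then not called. Smoc2 differed by -1.35. Clca4b, a chloride channel accessory with a close paralog that may share reads, differed by -6.68. On the other side Lrig1 (1.24), a negative regulator of growth factor receptors, Ephb2 (1.07), a crypt positioning receptor, and Aqp4 (1.93), a water channel, were higher in colon. The product was called for 0 of 21 (edgeR, 6 at an unadjusted p under 0.05, 0 by DESeq2).

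Cell cycle genes were only partly separated in the mutant. Of 30, 2 were higher in colon and 9 in SI. Their median was -0.35, and 36.7% were called, against 60.9% of all genes. In WT 1 was higher in colon and 28 in SI, with a median of -1.11. Mki67, a marker of cycling cells, had 31.9 to 61.4 CPM in colon (median 51.2) and 65.4 to 88.9 CPM in SI (median 74.1), a difference of -0.64 (adjusted p = 0.000813) without overlap, against -1.41 in WT. The mutant difference turned to 0.17 with plain totals, where 14 of the 30 genes were higher in colon and 0 in SI. Ccnd1, the G1 cyclin D1, ran the other way, at 65.2 to 111 CPM in colon and 32 to 56.4 CPM in SI (1.11). All 30 products were positive, from 0.22 to 1.05, and 26 had an unadjusted p under 0.05, but 0 were called (edgeR), against 4 by DESeq2 and 12 with the replicate number as a block. The SI count in 9S/T-A was 17 with the block. It ranged from 3 to 12 over fits without 1 library, with 3 without colon replicate 5, SI replicate 2 or SI replicate 4, and 4 without colon replicate 4, colon replicate 7 or SI replicate 3.

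Enteroendocrine products differed by region. In the paper, ChgA-positive endocrine cells and, in WT, Dclk1-positive tuft cells carried no reporter at 24 h. Which sorted cells gave the hormone and tuft transcripts was not tested. Of 20 hormones and granule proteins 18 were tested, 3 were higher in colon and 11 in SI, beside 32.9% and 28.0% of all genes. Sct, secretin, had 148 to 244 CPM in SI and 7.66 to 13.7 CPM in colon (-4.35), and Cck, cholecystokinin, 4.89 to 12.0 against 0.224 to 0.826 CPM (-4.23). Gip, the glucose-dependent insulinotropic peptide of the proximal SI, had 39 to 584 counts in SI and at most 2 in colon, at least 122-fold higher in SI. The colonic peptides were Insl5, with 77 to 278 counts in colon and at most 1 in SI, at least 26.8-fold higher in colon, Gcg, the proglucagon gene (2.92), and Pyy (1.79). Chga, a granule protein shared by endocrine cells, had 10.6 to 21.4 CPM in colon and 22.4 to 80.8 CPM in SI (-1.63). Colon replicate 3 held the highest colon value of Chga, Cck, Insl5 and Pyy, and its hormone list summed to 212 CPM on plain totals against 100 to 125 in the other colon libraries. Tac1, the substance P gene, was the listed member with a called product, at -0.10 in 9S/T-A and -2.49 in WT (product 2.37, adjusted p = 0.0155). Of 12 tuft cell markers 11 were tested, 0 were higher in colon and 6 in SI (edgeR, 1 and 2 with plain totals), beside the same shares of all genes. The tuft list was highest in the replicate 7 libraries of both tissues, at 77.6 CPM on plain totals in colon and 122 in SI, and without SI replicate 7 a single marker was called higher in colon and 4 in SI.

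Absorptive transcripts were also detected in these sorts and were mostly higher in SI. Of 30 brush border hydrolases and nutrient carriers, 2 were higher in colon and 26 in SI (median -4.55), and of 25 lipid and vitamin A genes 2 and 22 (median -5.84), where 28.0% of all genes were higher in SI. Fabp1, the fatty acid binding protein of proximal enterocytes, had 226 to 628 CPM in SI (median 285) and 0.237 to 0.692 CPM in colon (median 0.344), a difference of -9.82. Apoa4, a chylomicron apolipoprotein, had 1111 to 2172 against 0.743 to 1.12 CPM (-10.57), Sis, sucrase-isomaltase, 204 to 760 against 0.928 to 2.37 CPM (-7.93), Lct, lactase, 153 to 409 against 0.0635 to 0.342 CPM (-10.12), and Npc1l1, the cholesterol transporter, 180 to 225 against 0.132 to 0.323 CPM (-9.74). The sugar transporter Slc5a11 was at least 372-fold and the nucleoside transporter Slc28a1 at least 196-fold higher in SI. The members higher in colon were Mep1a (1.74), a metalloprotease, Slc40a1 (1.33), the iron exporter, Scarb1 (3.17), a lipoprotein receptor, and Adh1 (1.98), an alcohol and retinol dehydrogenase. SI replicate 2 stood apart, with a brush border sum of 4532 CPM on plain totals against 1634 to 2477 in the other SI libraries, and the brush border counts without it stayed within 1.5 times those given.

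The 250 bases upstream of Fabp1 (chr6:71199629-71199878, plus strand) and Sis (chr3:72967864-72968113, minus strand), both from RefSeq in GRCm38.p6 and printed 5′ to 3′, are shown as 2 examples of SI-high promoters that hold HNF1, CDX and TATA letters. Their G or C content, 42.8% for Fabp1 and 31.6% for Sis, lies under the median of the SI-high set given next, while the same stretch upstream of the SI-high genes Apoa4 (57.6%) and Olfm4 (54.0%) lies above it. Capitals mark letters searched on both strands for GATA factors (TGATAA or AGATAA), HNF4 (CAAAGTC), HNF1 (GTTAAT), CDX factors (TTTATGG or TTTATTG), HOX13 (TCGTAAA), E-box proteins such as ATOH1 (CAGCTG or CAGATG) and the TATA box (TATAAA). Where CDX and TATA letters meet they can overlap.
Fabp1: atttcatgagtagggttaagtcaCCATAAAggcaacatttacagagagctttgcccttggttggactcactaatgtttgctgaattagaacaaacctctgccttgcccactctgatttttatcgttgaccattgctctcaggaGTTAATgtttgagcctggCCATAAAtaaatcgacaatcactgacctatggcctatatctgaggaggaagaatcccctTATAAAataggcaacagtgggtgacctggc
Sis: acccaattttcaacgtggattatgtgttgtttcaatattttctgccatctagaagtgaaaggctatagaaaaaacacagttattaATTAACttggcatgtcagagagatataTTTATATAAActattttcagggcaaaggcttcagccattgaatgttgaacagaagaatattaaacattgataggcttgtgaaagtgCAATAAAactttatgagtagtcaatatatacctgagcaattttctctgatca

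Over windows of 300 bases, GATA letters were found in 28.6% of the 206 promoters of genes at least 32-fold higher in SI, in 15% of the 200 of genes at least 32-fold higher in colon and in 10.8% of all 10941. The HNF1 letters followed the same order, with 17%, 9.0% and 4.6%, as did those of HNF4, with 12.1%, 5.0% and 4.0%. The HOX13 letters were in 0 of the 206 SI promoters and in 2.5% of the colon promoters, against 0.8% of all. The E-box letters were in 38.8%, 30.0% and 25.0%. Median G or C content was 51.0% in the SI set and 54.0% in the colon set, against 60.3% in all, and the TATA letters were in 27.2% and 20%, against 7.7% of all. A match of letters is not a binding site, and no test was made.

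Bile acid and drug-handling genes were also more often higher in SI with TMM, which for bile acid genes depended on scaling. Of 10 bile acid genes 8 were tested. Of these, 2 were higher in colon and 5 in SI (3 and 3 with plain totals), beside 32.9% and 28.0% of all genes. Abcc2, the canalicular-type organic anion exporter, had 33.5 to 64.0 CPM in SI and 0.106 to 0.492 CPM in colon (-7.26). Fabp6, the ileal bile acid binding protein, had 89 to 160 counts in colon and at most 2 in the proximal SI, at least 23.4-fold higher in colon. The ileal bile acid carrier Slc10a2 was near the detection limit in both tissues (0.213 to 0.734 and 0.129 to 0.515 CPM, adjusted p = 0.398). Of 30 xenobiotic enzymes 29 were tested. Of these, 5 were higher in colon and 20 in SI (9 and 14 with plain totals), beside the same shares of all genes. Cyp3a11 had 26.8 to 130 CPM in SI and 0.0288 to 0.279 CPM in colon (-9.27), and Gsta1, a glutathione transferase, 279 to 513 against 2.37 to 4.92 CPM (-6.51). Cyp2c55 was a colonic member, at 74.9 to 165 against 3.64 to 21.1 CPM (4.02). The median product of the xenobiotic list was -0.54 with 0 of 29 called (edgeR, 9 at an unadjusted p under 0.05, 2 by DESeq2), and 5 were called with the block.

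Ion and water transport genes of the colon were mostly higher in the colon cells. Of 23 genes, 18 were higher in colon (against 32.9% of all) and 4 in SI, with a median of 1.61 and no called product (0 by edgeR, 2 at an unadjusted p under 0.05, 0 by DESeq2). Car1, the colonic carbonic anhydrase, had 189 to 443 CPM in colon (median 282) and 0.335 to 1.49 CPM in SI (median 0.452), a difference of 8.86. The sodium channel subunits Scnn1b (8.81) and Scnn1g, the latter at least 93.7-fold higher in colon, and the proton pump Atp12a (8.92) were close to absent in SI, while the third subunit Scnn1a was lower in colon (-0.70, which became 0.09 with plain totals). Slc5a8, a short-chain fatty acid carrier, had 92.7 to 140 against 0.333 to 1.55 CPM (7.30), and Aqp8, a water channel of surface colonocytes, 8.65 to 22.5 against 0.314 to 4.37 CPM (3.72). Slc26a3, the chloride exchanger, was not called (0.48, adjusted p = 0.0902), but was with the block (0.53, adjusted p = 0.0062), without colon replicate 7 and without SI replicate 2. Among 22 claudins 11 were tested. Of these, 4 were higher in colon and 6 in SI (6 and 2 with plain totals), beside 32.9% and 28.0% of all genes. Cldn8, a sealing claudin, had 24.6 to 39.4 CPM in colon and 0.305 to 1.08 CPM in SI (5.46), Cldn14 differed by 7.0 and the pore-forming Cldn2 by 2.66, while Cldn4 (-2.64) and Cldn15 (-0.83, -0.03 with plain totals) were higher in SI.

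**Figure D3:**
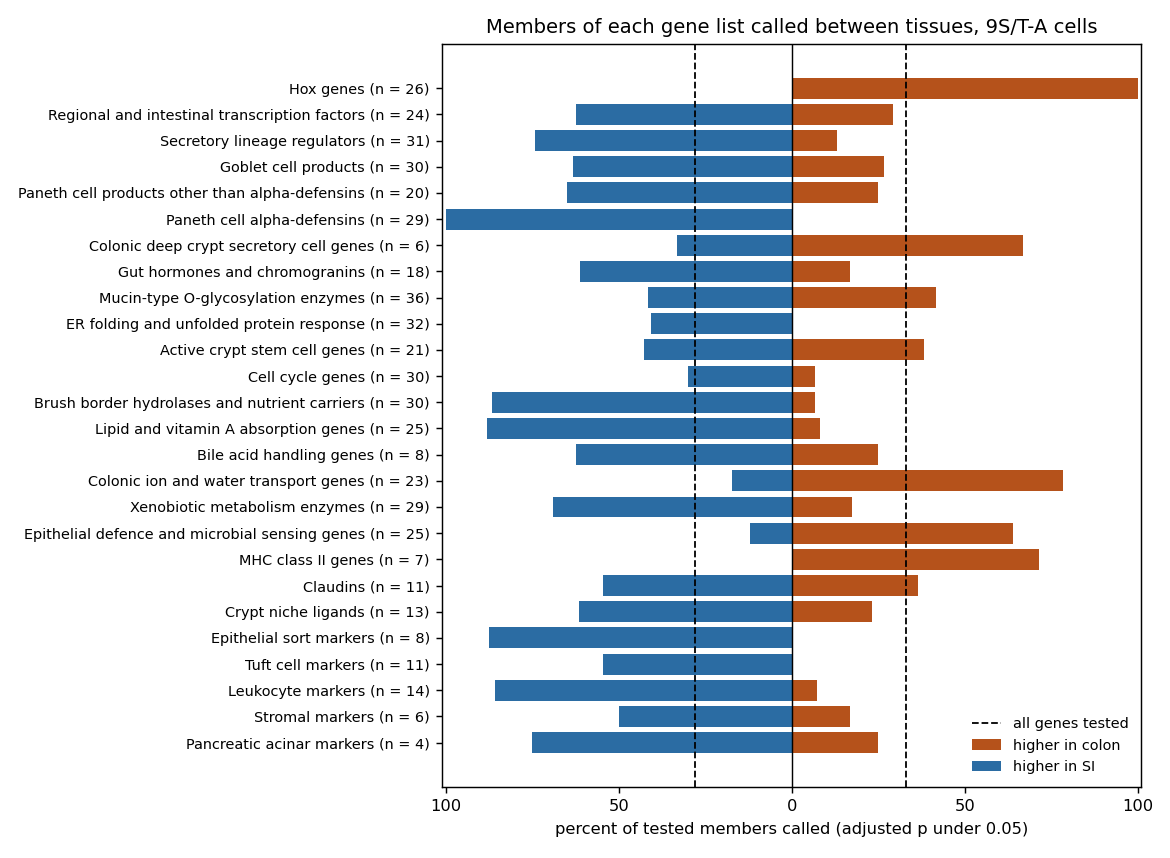
Percent of the tested members of each gene list that were called higher in colon or higher in SI in 9S/T-A, with the shares over all genes as dashed lines (32.9% and 28.0%). Hox genes are called in colon throughout, alpha-defensins in SI throughout, and 36.7% of cell cycle genes and 40.6% of ER genes are called in either direction.

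The largest colon differences outside the lists were of genes with varied roles. Nxpe4, at least 222-fold higher in colon, Lpo, the lactoperoxidase gene, at least 196-fold, Pdlim4, a cytoskeletal adaptor, at least 165-fold, and Slpi, a secreted protease inhibitor, at least 141-fold, were all at 2 counts or fewer in each SI library. Tgm3, a transglutaminase, had 71.0 to 234 CPM in colon and 0.184 to 0.309 CPM in SI (9.21), and Ccn3, a matricellular protein, 351 to 969 against 0.258 to 1.06 CPM (9.29). Absence of overlap, found for 41.0% of all genes tested, was a condition for naming the largest differences and is not a result about these genes.

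Defence and microbial sensing genes were raised in colon. Of 26 listed 25 were tested, 16 were higher in colon and 3 in SI, all by at least 2-fold, beside 11.7% and 12.1% of all genes at that size. The median was 1.38. Tlr4, the lipopolysaccharide receptor, had 8.17 to 14.0 CPM in colon and at most 0.0628 CPM in SI (8.35), Tlr1 differed by 4.09 and the peptidoglycan sensors Nod1 and Nod2 by 2.26 and 2.36. Cxcl16, a chemokine, was the reverse, at 77.4 to 128 CPM in SI and 0.651 to 1.66 CPM in colon (-6.66). Duox2 (ENSMUSG00000068452, chromosome 2, 122279247 to 122298165), which makes hydrogen peroxide at the epithelial surface, had 105 to 146 CPM in colon (median 118) and 4.87 to 9.25 CPM in SI (median 7.04), a difference of 4.11 against 1.71 in WT (product 2.38, adjusted p = 0.00186). Nox1, the colonic superoxide source, had 7.31 to 22.0 against 0.0515 to 0.44 CPM, a difference of 5.98 against 3.12 in WT (product 2.86, adjusted p = 0.0241, lost at 0.0557 without 9S/T-A SI replicate 7). Saa1, an acute phase protein whose paralog Saa2 may share reads, differed by 6.70 against 4.25 (product 2.45, adjusted p = 0.0462). These 3 were the list members with a called product, and 9 were called with the block. The count of 3 ranged from 1 without 9S/T-A SI replicate 7 to 5 without WT SI replicate 2.

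MHC class II genes, which present peptides to helper T cells and can be induced in epithelium, gave opposite directions in the genotypes. Of 7, 5 were higher in colon and 0 in SI in 9S/T-A (edgeR, median 2.25), beside 32.9% and 28.0% of all genes. In WT 0 were higher in colon and 6 in SI (median -3.04), beside 33.1% and 30.4%. Cd74, the invariant chain, had 4.72 to 449 CPM in colon (median 74.3) and 1.95 to 31.7 CPM in SI (median 5.77), with overlap, and a difference of 3.30 (SE 0.878, adjusted p = 0.00432). H2-Aa had 1.46 to 110 against 0.56 to 4.65 CPM (3.83). The spread among colon libraries was wide. The list summed to 1055 CPM on plain totals in colon replicate 6, to 34.4 in colon replicate 3 and to 138 to 296 in the other 4, while the SI libraries gave 46.1 to 84.0. Without colon replicate 6 the counts were 3 higher in colon and 1 in SI with a median of 1.35, and Cd74 was at 2.25 (adjusted p = 0.0155). With the block 4 were higher in colon and H2-DMa was not called (adjusted p = 0.05). The leukocyte sum without Lyz2 was 8.17 CPM on plain totals in colon replicate 6, within the range of the other colon libraries. Itgam alone had 244 to 476 counts in the colon libraries, against 7 to 40 for Ms4a1 and 0 to 20 for Csf1r. The B cell gene Cd79a did not pass the filter. The part of immune cells in the class II values was not tested. The product was called for 6 of 7, from 2.72 for H2-Ab1 to 6.86 for H2-Aa (adjusted p = 0.0111), and for 5 to 7 of 7 in fits without 1 library. In WT the list summed to 16.9 to 40.4 CPM on plain totals in colon and to 58.6 to 373 in SI (median 86.5), so WT SI libraries also spread widely. Class II genes share sequence, so single members are uncertain.

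Endoplasmic reticulum folding genes, on which secretion depends, were close between the tissues. Of 32, 0 were higher in colon and 13 in SI (edgeR, 21 and 3 with plain totals), beside 32.9% and 28.0% of all genes. The median was -0.32, and in WT the counts were 0 and 24. Ddit3 (-1.65), a stress-induced factor, Ero1lb (-1.57), a protein oxidase, and Sel1l (-1.06), of the degradation complex, were the 3 members at least 2-fold apart. Hspa5, the chaperone BiP, had 649 to 1356 CPM in colon and 831 to 1597 CPM in SI (-0.26, adjusted p = 0.225, 0.53 with plain totals). The product was called for 0 of 32 (edgeR, 1 at an unadjusted p under 0.05, 0 by DESeq2).

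Set beside WT, the tissue differences of the mutant cells were of similar size. The WT fit called 10794 of 16979 genes (63.6%), with colon above SI for 5625 (33.1%) and below it for 5169 (30.4%), and the median absolute difference was 0.47 against 0.49 in 9S/T-A. Of 16670 genes tested in both, 8989 were called in the same direction, 88.2% of the 9S/T-A calls and 84.5% of the WT calls, and 11 in opposite directions. Across these genes, which are not independent replicates, Pearson's r of the differences was 0.969 and Spearman's rho 0.933. The 2 comparisons shared no library.

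**Figure D4:**
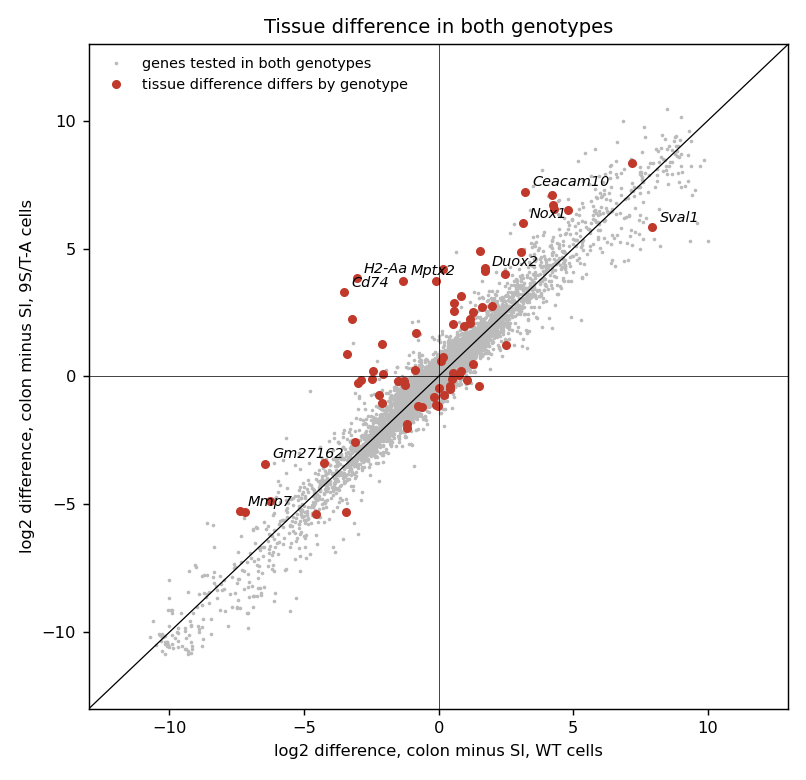
Log2 difference of colon over SI in WT (x axis) and in 9S/T-A (y axis) for each gene tested in both, with the genes whose genotype by tissue product was called in red. Most genes lie along the diagonal, and Mptx2, the class II genes and Ceacam10 lie well above it.

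The product of genotype and tissue, which tests whether the tissue difference of the mutant departs from that of WT, was called for 74 of 17953 genes (0.412%), with 1740 at an unadjusted p under 0.05. The difference was higher in 9S/T-A for 52 (0.290%) and lower for 22 (0.123%). With the replicate number as a block 342 were called (1.90%), among them 71 of the 74. Of the 74, 27 were called in both genotypes and larger in 9S/T-A, 11 were called in both and smaller, 8 were called in opposite directions, 10 were called in 9S/T-A but not in WT, and 16 in WT but not in 9S/T-A. The genotypes were farther apart in SI than in colon for 49 of the 74. The share among all genes tested was not determined, so this count describes the 74 alone.

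Ceacam10, a member of an adhesion molecule family, had a larger difference in the mutant. Ceacam10 had 58.3 to 95.5 CPM in 9S/T-A colon and 68.9 to 85.9 CPM in WT colon, against 0.236 to 0.765 CPM in 9S/T-A SI and 2.74 to 18.9 CPM in WT SI. The colon groups overlapped and the SI groups did not, and the differences were 7.22 and 3.21 (product 4.0, adjusted p = 1.62e-05). Duox2 had 4.96 to 9.39 CPM in 9S/T-A SI and 15.2 to 60.5 CPM in WT SI, with overlapping colon levels (108 to 153 and 91.2 to 127 CPM). Sval1 was the reverse, with 12.1 to 25.3 CPM in 9S/T-A SI and 4.10 to 5.27 CPM in WT SI, and its difference was smaller in the mutant (5.84 against 7.94, product -2.11, adjusted p = 1.62e-05). Pon3, a lactonase, had 50.3 to 56.9 CPM in 9S/T-A SI and 29.1 to 33.8 CPM in WT SI, while its colon levels overlapped (48.0 to 63.7 and 47.6 to 58.2 CPM), so that 0.05 in 9S/T-A stood against 0.74 in WT (product -0.70, adjusted p = 0.000467). Cacna2d2, a calcium channel subunit, followed it, at 11.9 to 17.9 CPM in 9S/T-A SI and 4.08 to 7.61 CPM in WT SI (1.21 against 2.49, product -1.28). Gm27162, a gene without an assigned function here, differed by -3.41 against -6.44 (product 3.02).

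The 8 genes called in opposite directions with a called product were Mptx2, Cd74, H2-Aa, H2-Eb1, H2-DMa, Hspb8, Ncald and Pcbp4. Hspb8, a small heat shock protein, was higher in colon in the mutant (1.68) and lower in WT (-0.85). Ncald, a calcium sensor, was lower in colon in the mutant (-0.36) and higher in WT (0.44), and Pcbp4, an RNA-binding protein, likewise (-0.49 and 0.44), but both mutant differences turned to 0.45 and 0.33 with plain totals.

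**Figure D5:**
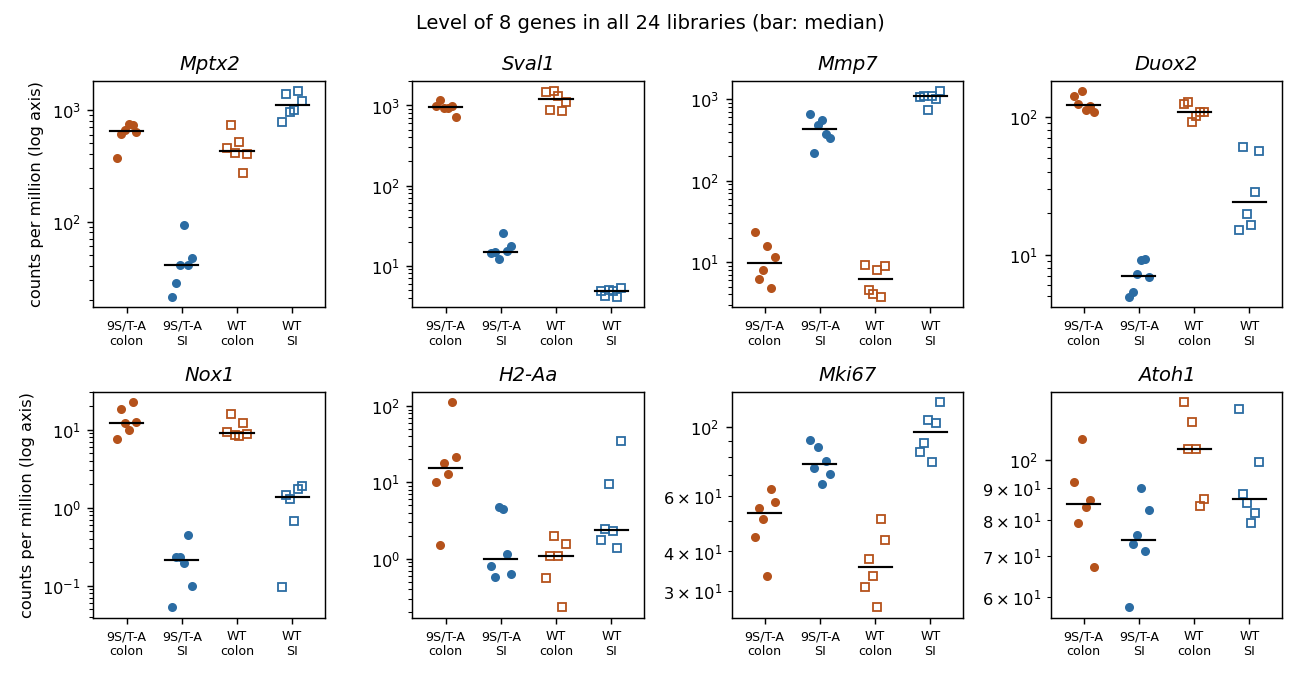
Level of 8 genes in all 24 libraries (CPM after TMM scaling over 24 libraries, log axis) by genotype and tissue. Mptx2 and Duox2 differ between genotypes mainly in SI, where the groups do not overlap, H2-Aa varies most in 9S/T-A colon, and Atoh1 overlaps across tissues within each genotype.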

How the data were processed

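RNA from sorted EpCAM and tdTomato positive cells was sequenced by the authors as stranded mRNA libraries with single-end reads, aligned with TopHat2 2.1.1 to GRCm38 and counted per gene with featureCounts of Subread 1.5.2, with the reverse strand setting (2) in the file headers. The deposited values were raw counts for 45513 genes per library, of which 98.15% were named through GENCODE M21. The study used DESeq2 1.14.1.

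Here the counts were filtered with filterByExpr, scaled by TMM and tested with edgeR 4.0.16 (quasi-likelihood, R 4.3.3) in 3 fits: colon against SI in 9S/T-A (12 libraries), the same in WT, and the product of genotype and tissue (24 libraries). An adjusted p under 0.05 was termed called. List sums used plain library totals. DESeq2 1.42.0, other scalings, filters, thresholds, sex as a covariate, a replicate block and leaving out each library were alternatives. Total counts were 36.0 to 65.8 M, which limits precision mainly for genes of a few counts. A fold against a group near 0 counts used a floor of 3 counts per library and covers counting error alone.

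Each number from 2 to 7 named an SI and a colon library of a genotype. Same-number deviations correlated at 0.162 to 0.651 in 9S/T-A and 0.17 to 0.572 in WT, each over 0.1, so the numbers were taken to pair the samples. Different numbers reached 0.248 in 9S/T-A and 0.41 in WT. In each genotype 4 of 6 colon libraries correlated best with the SI library of their own number. The main fits did not use the pairs, which entered only as the replicate block. No 2 libraries of a group were identical. The p-values of the main fits treat the libraries as unpaired and measure the spread between these samples.

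Genes named were the 10 largest differences per direction among called protein-coding genes without overlap and with an average log2 CPM of at least 1, a fixed set of anchor genes, the largest called difference per direction in each list, genes called in opposite directions by genotype with a called product, and the 6 smallest product p-values. Other list members were named as examples after their values were seen. The members and lists were chosen with earlier results of these data known. On simulated counts with 16938 genes, 73.5% of 2-fold and 95.5% of 4-fold changes were recovered for colon against SI, with 12 and 9 false calls. With 17953 genes the shares were 56% and 91.5% for the genotype by tissue product, with 9 and 16 false calls. Each simulation changed 200 genes and gave all libraries the same composition otherwise. In the data 60.9% of genes were called between tissues and composition differed, so these rates do not carry over to that comparison. Promoters were RefSeq windows from GRCm38.p6. The values of some listed genes are not reported here.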

Additional observations from a re-analysis of the deposited data

Results flagged for a closer look

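Of 228 gene and group pairs checked, 32 had a library set apart from the other 5 of its group by Dixon's criterion, and chance alone sets apart about 1 in 20. Several fell in the same libraries. Colon replicate 3 was high for the endocrine genes Chga (21.4 CPM), Insl5 (4.42 CPM), Pyy (9.72 CPM) and Cck (0.826 CPM), and also for Ccn3 (969 CPM), Vim (1.89 CPM) and Cyp2c29 (0.0159 CPM). Colon replicate 6 was high for the class II genes Cd74 (449 CPM), H2-Aa (110 CPM), H2-DMa (18.1 CPM) and H2-Eb1 (60.6 CPM) and for Retnlb (864 CPM). Colon replicate 7 was low for Epcam (749 CPM) and Muc2 (11045 CPM) and high for the tuft marker Avil (5.77 CPM). Colon replicate 2 stood apart for Egf (48.7 CPM), Mptx2 (363 CPM) and Slc28a1 (0.012 CPM), and colon replicate 4 for Defa2 (1.02 CPM) and Ido1 (64.8 CPM).

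Among SI libraries, replicate 2 was high for the carriers Slc5a1 (447 CPM) and Slc5a11 (29.6 CPM) and for Hoxa13 (0.0773 CPM), and low for the carrier Slc26a2 (243 CPM). SI replicate 3 stood apart for Aqp8 (4.37 CPM), Cyp2c29 (19.2 CPM), Cyp2c55 (21.1 CPM) and Nr1h4 (26.9 CPM), SI replicate 5 for Mptx2 (91.7 CPM), and SI replicate 7 for Car1 (1.49 CPM), Pdgfrb (2.28 CPM) and Insl5 (0.0196 CPM). Cyp2c29 and Slc28a1 in colon and Insl5 in SI had at most 1 count in any library, and Hoxa13 in SI at most 3. The criterion is not informative for these.

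The tissue difference departed from that of WT, by the product of genotype and tissue, for 18 of the 114 genes named by rule. It was positive for Mptx2 (5.06), Mptx1 (1.16), Mmp7 (2.1), Ceacam10 (4.0), Duox2 (2.38), Nox1 (2.86), Hspb8 (2.53) and Gm27162 (3.02), and for the class II genes H2-Aa (6.86), Cd74 (6.80), H2-Eb1 (5.47), H2-DMb1 (4.04) and H2-DMa (3.37). It was negative for Sval1 (-2.11), Cacna2d2 (-1.28), Pcbp4 (-0.94), Ncald (-0.80) and Pon3 (-0.70). A4gnt, Barx2, Clps, Pnliprp2, Saa1, Tac1 and H2-Ab1, named above as further list members, also had a called product.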

How the results depend on the processing

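Called genes between tissues in 9S/T-A numbered 10319, 11634 with the replicate block (10290 called in both), 10535 by DESeq2 and 9945 to 10873 without 1 library. Those at least 2-fold apart rose from 4031 to 7996 with plain library totals. The product count of 74 was 342 with the replicate block, 258 by DESeq2, 136 at an adjusted p under 0.1 and 50 to 112 without 1 library, with 112 without 9S/T-A SI replicate 2 and 111 without WT SI replicate 2. With plain totals Ang4 (0.70), Epcam (0.75), Gfi1 (0.49), Mki67 (0.17), Ncald (0.45), Pcbp4 (0.33) and Spdef (0.58) turned toward colon. Ang4 also turned without colon replicate 2 (0.13) or 3 (0.01) and ran from -0.48 to 0.13 without 1 library, and Epcam turned without colon replicate 7 (0.02) or with upper quartile scaling (0.03) and ran from -0.08 to 0.02. Of 114 named genes, 111 kept their direction and side of the threshold under the replicate block and 113 under DESeq2. H2-DMa lost its call in 10 settings. The cause was not tested. Genes of a few counts are limited by depth.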

Other observations

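Per length, the leading transcripts of the colon libraries were Mptx1, at 31585 ± 7430 RPKM (SD, n = 6), Zg16 at 14001 ± 4312 RPKM and Spink4, a protease inhibitor of goblet cells, at 6605 ± 1155 RPKM. Lengths are those in the files, and annotated pseudogenes also ranked among the leading features.

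Processed pseudogenes, an annotation class chosen after its values were seen, were called higher in colon for 926 of 1995 tested (46.4%) and higher in SI for 163 (8.2%), with a median difference of 0.39. Protein-coding genes were balanced, with 4263 of 13290 (32.1%) higher in colon and 4236 (31.9%) in SI. The median of the pseudogenes was 0.32 in WT and 1.19 in 9S/T-A with plain totals, where that of protein-coding genes was 0.80. Reads of processed pseudogenes and of their parent genes are hard to tell apart, and their part in this difference was not tested.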
